A study of Mus musculus with 2 samples.

Results

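The cells described here are monocytes with F13a1, Vcan, Ccr2 and Ly6c2 RNA, taken from single-cell RNA sequencing of cultured mouse bone marrow. The cells came from a wild-type male C57BL/6J mouse, 3 months old, and were first held in medium stripped of hormones with 5 ng/mL M-CSF, which keeps monocytes and their descendants alive, for 48 h. For the next 24 h the medium contained 100 ng/mL M-CSF, 30 ng/mL RANKL, which starts osteoclast formation, and 10 ng/mL human TNF. The DHT culture held 1 nM 5α-dihydrotestosterone, an androgen, throughout, and the Vehicle culture an equal volume of its solvent, ethanol. Only adherent cells were collected, and the labels name them osteoclast precursors. Each group is 1 library, so replicates cannot be used to judge any difference below, and the groups were not tested against each other.

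A barcode was taken as a monocyte when F13a1, Vcan, Ccr2 and Ly6c2 together made up at least 0.05% of its unique molecular identifiers (UMIs, each a counted RNA molecule). It also had at least 5000 UMIs and 300 genes, at most 10% mitochondrial UMIs, and low shares of 5 other gene groups. Those were Mpo, Elane, Prtn3 and Ctsg under 0.3%, C1qa, C1qb and C1qc under 0.03%, Acp5 and Ctsk under 0.1%, S100a8 and S100a9 under 3%, and Cd74 with the MHC class II genes H2-Aa, H2-Ab1 and H2-Eb1 under 0.5%. The rule found 816 monocytes among 6766 DHT barcodes past the depth, gene and mitochondrial limits, and 687 among 8130 Vehicle barcodes. That is 1503 of 14896 such barcodes, or of 21428 deposited. The members were chosen by the measured levels of all these genes, which are given as description only. Just inside the lower limit, at 0.05 to 0.06% of UMIs from the 4 monocyte genes, lay 46 DHT and 34 Vehicle barcodes. Just outside, at 0.04 to 0.05%, lay 53 and 64.

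Classical monocytes leave the marrow through the chemokine receptor Ccr2, circulate with high Ly6c on their surface, and enter inflamed tissue, where they can become macrophages. Under M-CSF and RANKL, precursors of the same lineage can fuse into osteoclasts, the cells that resorb bone. Type I interferons act on these cells through Ifnar1 and Ifnar2, the kinases Jak1 and Tyk2, and a complex that holds Stat2 and Irf9. That complex binds the interferon-stimulated response element, in which the letters GAAA recur, and switches on antiviral genes. Interferons are known to restrain osteoclast formation.

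Interferon-stimulated genes had high ratios of DHT over Vehicle, so 4 promoters of the 12 genes with the highest ratios are shown first. Of those 12 genes, 10 had a promoter entry, and 4 of these held the motif below and 6 did not. The sequences are RefSeq promoters of build GRCm38.p6, from 250 bases before to 50 bases after each gene's start, all on the minus strand and printed 5′ to 3′ on the gene's strand. Capitals mark each match to a core of the response element, GAAA followed by any 2 bases and GAAA again, or its reverse complement, TTTC, any 2 bases and TTTC, so that both strands were searched. Isg15 (chr4:156200769-156201068), a ubiquitin-like antiviral protein, held 3 overlapping matches between 78 and 56 bases before the start.
Isg15: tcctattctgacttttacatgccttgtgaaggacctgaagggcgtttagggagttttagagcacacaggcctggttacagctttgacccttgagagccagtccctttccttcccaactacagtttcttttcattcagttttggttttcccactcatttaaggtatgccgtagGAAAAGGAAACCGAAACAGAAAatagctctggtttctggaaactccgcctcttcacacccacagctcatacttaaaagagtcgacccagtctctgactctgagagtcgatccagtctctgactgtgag
Oas3 (chr5:120777610-120777909), an enzyme that senses double-stranded RNA, held 1 match, 75 to 65 bases before the start.
Oas3: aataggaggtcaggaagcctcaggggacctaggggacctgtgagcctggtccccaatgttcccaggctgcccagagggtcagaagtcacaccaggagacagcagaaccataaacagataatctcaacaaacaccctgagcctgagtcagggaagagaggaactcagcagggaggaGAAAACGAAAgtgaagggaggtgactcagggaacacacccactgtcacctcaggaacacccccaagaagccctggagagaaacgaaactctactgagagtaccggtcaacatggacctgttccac
Cxcl10 (chr5:92348840-92349139), an interferon-induced chemokine, held 1 match, 213 to 203 bases before the start.
Cxcl10: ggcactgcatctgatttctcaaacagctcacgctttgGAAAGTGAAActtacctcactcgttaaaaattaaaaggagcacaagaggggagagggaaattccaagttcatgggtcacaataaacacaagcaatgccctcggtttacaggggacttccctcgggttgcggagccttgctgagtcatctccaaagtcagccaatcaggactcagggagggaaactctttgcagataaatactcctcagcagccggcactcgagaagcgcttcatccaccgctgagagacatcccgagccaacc
Irf7 (chr7:141266375-141266674), the transcription factor that amplifies interferon production, is shown because it held none of these letters in this window.
Irf7: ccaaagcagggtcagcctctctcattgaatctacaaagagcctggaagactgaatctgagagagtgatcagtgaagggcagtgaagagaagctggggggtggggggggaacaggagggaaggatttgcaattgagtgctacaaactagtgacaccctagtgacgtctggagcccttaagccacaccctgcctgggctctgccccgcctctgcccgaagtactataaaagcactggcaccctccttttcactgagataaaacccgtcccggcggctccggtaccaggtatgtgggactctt
The motif was in 3.44% of 32851 promoters and in 4.07% of the 5140 promoters that matched genes tested in monocytes. It was in 29 of the 80 matched promoters of genes at least 1.5-fold higher in DHT monocytes (36.3%) and in 1 of 14 of those lower. Of the 80, 32 belonged to a list of type I interferon-stimulated genes written with earlier results of these data known, and 16 of these (50%) held it. A match describes the letters of a window and shows neither binding nor a cause.

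The genes outside the rule showed which parts of a monocyte profile these barcodes carried. Fn1, the matrix protein fibronectin, stood at 312 CPM (counts scaled to a common total over the summed UMIs) in DHT monocytes, against 32.3 CPM in the other DHT barcodes past the limits. In the Vehicle library it stood at 266 CPM in monocytes and 15.5 CPM in the other barcodes. Ms4a6c, a membrane protein of monocytes, had 412 CPM in monocytes and 78.3 CPM in other DHT barcodes, with 354 and 37.8 CPM for Vehicle. Ly86, a partner of the Toll-like receptor relative Cd180, and Cd14, the lipopolysaccharide coreceptor, were 3.97-fold and 2.10-fold higher in monocytes than in other DHT barcodes. Other classical markers were less clear. Csf1r, the M-CSF receptor, was 1.17-fold higher than in the other DHT barcodes and 0.999 times their level in Vehicle, and Plac8 was 1.12-fold and 2.60-fold higher. Chil3, a chitinase-like protein that both monocytes and neutrophils make, was lower in monocytes in both libraries, at 0.139 and 0.492 times the level of the other barcodes.

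The rule genes themselves varied widely among the members. F13a1, coagulation factor XIII A, stood at 729 CPM in DHT and 711 CPM in Vehicle monocytes, and Vcan, the proteoglycan versican, at 359 and 415 CPM. Ccr2 stood at 399 and 299 CPM, and Ly6c2, which encodes the Ly6C antigen, at 1332 and 1147 CPM. All 4 genes were found in 548 DHT monocytes (67.2%) and 521 Vehicle monocytes (75.8%), and 27 and 9 monocytes carried 1 of them alone. Ly6c2 was the least particular of the 4. With each barcode thinned to 5000 UMIs, 85.2% of DHT and 85.01% of Vehicle monocytes had a Ly6c2 UMI, as did 83.1% and 81.6% of barcodes rich in S100a8 and S100a9 RNA. For Vcan those shares were 47.3% and 56.5% in monocytes, against 2.22% and 1.78% in the S100a8 and S100a9 barcodes, whose median depths were 14854 and 11874 UMIs before thinning.

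Monocytes were deeper than most barcodes of both libraries, whose medians over all deposited barcodes were 13838 UMIs in DHT and 43120.5 in Vehicle, and which the labels place in the same batch. Those medians include 3526 DHT and 1975 Vehicle barcodes under 5000 UMIs, which the rule leaves out, so the rule itself accounts for part of this. Monocytes held a median of 69226 UMIs and 7384 genes in DHT, and 59206 UMIs and 7034 genes in Vehicle. In sum they gave 57617783 of 319430510 UMIs in the DHT library (18.04%) and 43787123 of 453802415 in the Vehicle library (9.65%). The libraries shared 33 barcodes, and no monocyte barcode of one was a monocyte in the other. Scrublet, a doublet caller, marked 18 DHT monocytes (2.21%) and 27 Vehicle monocytes (3.93%), and none was removed.

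**Figure D1:**
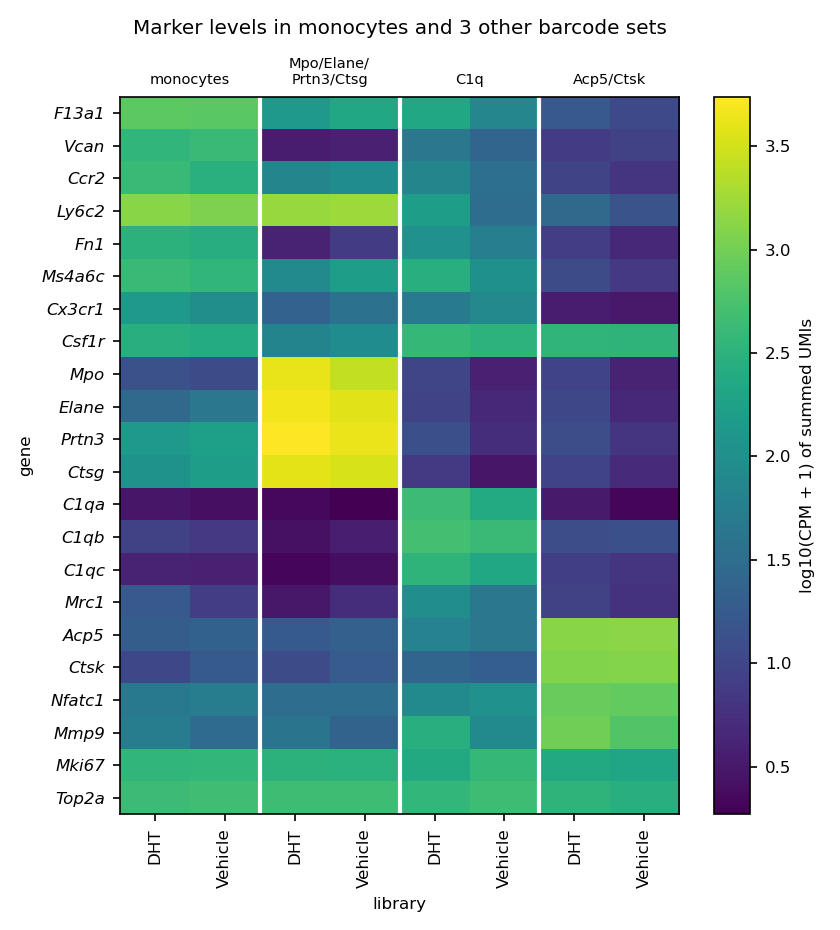
Each cell of the map gives a gene's level as log10 of CPM plus 1 (colour scale) from UMIs summed over a barcode set, DHT left of Vehicle in each pair. The 4 rule genes, Fn1 and Ms4a6c are bright in monocytes in both libraries, while C1qa, C1qb and C1qc are bright in the C1q barcodes and Acp5 and Ctsk in the Acp5/Ctsk barcodes.

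RNA of markers of other cell types was present, and some of it differed between the libraries. Whether it came from other cells or was made by the monocytes themselves was not tested. The neutrophil marker S100a8 stood at 1144 CPM in DHT and 912 CPM in Vehicle monocytes, above F13a1. Markers counted as measured had at least 2 CPM in 1 or both libraries. Over all 10874 genes at that level, 2.64% were at least 1.5-fold higher in DHT monocytes and 1.18% as far lower. For neutrophils, 5 of 10 measured markers were at least 1.5-fold higher in DHT monocytes: S100a9, Camp, Ltf, Ngp and Cxcr2. Their list summed to 1938 CPM in DHT and 1498 CPM in Vehicle monocytes, with medians of 782 and 520 CPM per cell, and S100a9 stood at 413 and 239 CPM. The log2 ratio of S100a9 was 0.79, and 0.41 without the 10% of monocytes with the highest Scrublet score. In DHT, 1 barcode each held 35.5%, 25.3% and 21.8% of the UMIs of Ltf, Ngp and Camp. S100a9, Camp and Ngp left the higher genes when free RNA, estimated in part from neutrophil markers, was subtracted. Of the C1q macrophage markers, 4 of 8 were higher with DHT: Ms4a7 (55.3 and 22.998 CPM), the lipoprotein Apoe (70.8 and 29.0 CPM), the mannose receptor Mrc1 (16.3 and 6.85 CPM) and the efferocytosis receptor Mertk (4.01 and 2.60 CPM). That list summed to 304 and 229 CPM, with 5th to 95th percentiles over cells of 8.20 to 2188 CPM in DHT and 12.6 to 891 CPM in Vehicle. Of 6 osteoclast markers, 3 were lower with DHT, and the list summed to 90.1 and 119 CPM. Calcr, the calcitonin receptor of mature osteoclasts, had no UMI in either set of monocytes. All markers of T cells, NK cells, mast cells or basophils, eosinophils and erythroid cells were under 2 CPM. Markers of other types past the fold were the MHC class II genes H2-Aa and H2-Eb1 (2 of 5 dendritic cell markers), Cd79a, Ebf1 and Ighm (3 of 4 B lineage markers), and Pf4, the 1 megakaryocyte marker measured, all higher with DHT. Of these, Ighm had 42.4% of its DHT UMIs in 1 barcode and stood at 49.79 and 56.55 CPM without each library's highest barcode. Ebf1 had 45.1% of its DHT and 91.8% of its Vehicle UMIs in 1 barcode each. The log2 ratio of Pf4 was 0.92 over all monocytes and -0.08 in those with under 0.01% of UMIs from Apoe and Ms4a7. Sparc, the 1 stromal marker measured, was lower with DHT, and 1 barcode held 228 of its 240 Vehicle UMIs. Bst2, 1 of 2 plasmacytoid dendritic cell markers, was higher and also belongs to the interferon list. Of the monocyte markers 0 of 11 were past the fold, of progenitor markers 1 of 6 was lower (Elane), and of endothelial and stem cell markers 0 of 1 and 0 of 2 were past it. These counts include genes that the rule selects or limits, so they are description only. Those are the 4 monocyte genes, Mpo, Elane, Prtn3, Ctsg, S100a8, S100a9, the C1q genes, Acp5, Ctsk, Cd74, H2-Aa, H2-Ab1 and H2-Eb1. The part of these markers' RNA in the results below was not tested, except where a value without it is given.

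Monocytes made up a larger share of the DHT library than of the Vehicle library. They were 12.1% of DHT barcodes past the limits (exact 95% interval 11.3 to 12.9%) and 8.45% of Vehicle barcodes (7.85 to 9.08%), a ratio of 1.43. Of all deposited barcodes they were 7.56% and 6.46%, a ratio of 1.17. The barcodes failing the limits numbered 4032 in DHT and 2500 in Vehicle, and barcodes rich in S100a8 and S100a9 numbered 1715 and 898, so the denominators differ in make-up. Against progenitor, C1q and Acp5/Ctsk barcodes alone, monocytes were 35.9% of 2274 DHT barcodes and 27.7% of 2477 Vehicle barcodes, a ratio of 1.29. Acp5/Ctsk barcodes, which carry osteoclast RNA, were 26.8% and 42.0% of the same barcodes. Of barcodes past the limits, C1q barcodes were 10.1% in DHT and 7.23% in Vehicle, and progenitor barcodes were 2.47% and 1.98%. Acp5/Ctsk barcodes were 9.02% and 12.8% of them. A larger share in DHT was thus not particular to monocytes. The intervals cover counting error only.

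In gene expression, interferon-stimulated genes formed a large group among the differences between DHT and Vehicle monocytes. Isg15 was 9.14-fold higher, Irf7 11.9-fold, Bst2 (tetherin, which holds budding virus at the cell surface) 2.35-fold, and Stat2, a carrier of the interferon signal, 2.23-fold. The comparison held 6364 genes that reached 20 CPM in either library. In DHT monocytes 104 of them (1.63%) stood 1.5-fold or more above Vehicle and 17 (0.267%) stood as far below. Below, higher and lower without a value mean past that fold. Of the 104, 45 belonged to the 2 interferon lists and the others did not. The median log2 ratio of DHT over Vehicle over all these genes was 0.03. Scaling by TMM or by the median of ratios, in place of the total, moved it to 0.003 and 0.005.

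**Figure D2:**
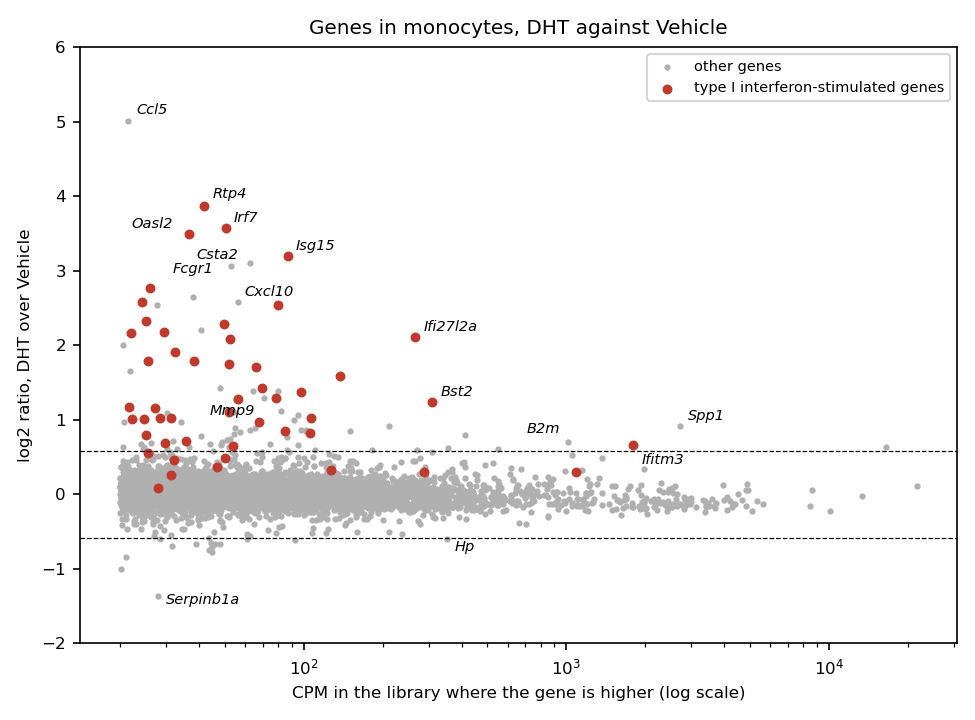
Each point is a gene with at least 20 CPM, plotted by its CPM in the library where it is higher (log scale) and its log2 ratio of DHT over Vehicle; red points are the type I interferon list and dashed lines mark 1.5-fold. Red points run from near 0 up to 3.86 for Rtp4 and few points lie under the lower line. Prg4, Igkc, Ighg1 and Jchain fall outside the axis range and are not drawn.

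Of the type I interferon list, 73 of 76 genes were measured, meaning at least 2 CPM in 1 or both libraries. Of these, 62 were higher in DHT monocytes and 0 lower, with a median log2 ratio of 1.43. Over all 10874 genes at that level, 287 were higher (2.64%) and 128 lower (1.18%), with a median of 0.04. The list is described by its count, and 72 of its 73 ratios were above 0. Ifi44, an interferon-induced antiviral protein, had 161 UMIs in DHT monocytes and 0 in Vehicle monocytes, and was at least 40.8-fold higher when Vehicle was set at the floor of 3 counts.

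The sensors and signal carriers of the pathway were among the genes that were higher. Isg15 had 86.8 CPM in DHT and 9.50 CPM in Vehicle monocytes, from 5002 and 416 UMIs (counting interval of the ratio 8.27 to 10.1). Irf7 had 50.5 and 4.25 CPM (10.2 to 13.8), and Rtp4, a chaperone of membrane receptors, had 41.9 and 2.88 CPM (12.2 to 17.6). The UMIs of these 3 genes were unevenly spread, with the first 50% of them in 40, 58 and 74 of the 816 DHT monocytes. The transcription factors of the interferon complex followed at smaller ratios. Stat2 had 27.1 and 12.2 CPM, and Irf9 had 31.2 and 15.4 CPM. The RNA sensors Ddx58 (RIG-I) and Ifih1 (MDA5) were 4.54-fold and 2.25-fold higher.

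Effectors covered several modes of antiviral defence. Oasl2 (36.7 and 3.27 CPM), Oas3 (24.2 and 4.04 CPM) and Oas1a (25.04 and 5.002 CPM) belong to the oligoadenylate synthetase family, whose product activates RNase L. The Schlafen genes Slfn5 and Slfn1 were 5.83-fold and 6.82-fold higher. Bst2 had 309 and 131 CPM, and Ifitm3, which blocks virus entry at endosomes, had 1805 and 1145 CPM. Ifi27l2a, a small mitochondrial and nuclear envelope protein, had 267 and 61.9 CPM. The surface antigen Ly6a (Sca-1) had 49.8 and 10.2 CPM, but 19 DHT and 8 Vehicle monocytes held 50% of its UMIs. Ifit3, a binder of viral RNA, had 11.9 and 0.959 CPM, with 5 DHT monocytes holding 50%. The list's smallest ratios among genes at 20 CPM were those of Nt5c3 (27.8 and 26.2 CPM) and Trafd1 (31.1 and 26.0 CPM).

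Genes of antigen presentation and the interferon gamma-inducible GTPases made up the second group. Of 30 measured members 16 were higher and 0 lower, with a median log2 ratio of 0.65, and all 30 ratios were above 0. B2m, the light chain of MHC class I, had 1019 CPM in DHT and 625 CPM in Vehicle monocytes. Tap1, the peptide transporter, had 44.0 and 27.6 CPM, and the GTPase Irgm1 had 21.8 and 6.92 CPM. The immunoproteasome subunits Psmb8 and Psmb10 stayed within the fold, at 362 and 351 CPM and at 117 and 109 CPM. The inputs of the pathway differed little. Of 15 measured ligands, receptors and kinases, 1 was higher, Tlr7, a sensor of single-stranded RNA. Ifnar1 had 67.5 and 57.0 CPM, Ifngr1 had 96.8 and 101 CPM, and the DNA sensor Cgas had 45.8 and 35.1 CPM.

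**Figure D3:**
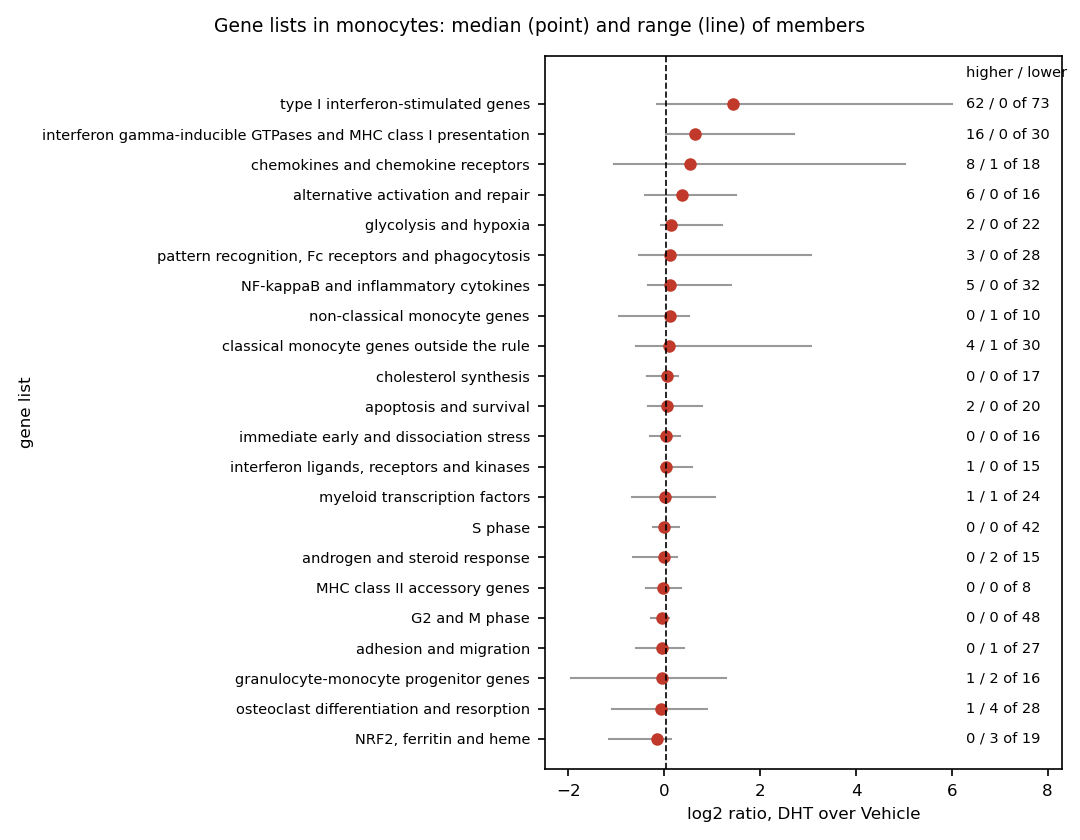
Each row is a gene list in monocytes, with the median log2 ratio of DHT over Vehicle (point), the lowest and highest member (line), and the numbers of measured members at least 1.5-fold higher and lower. The dashed line is the median of all 10874 genes, 0.04; the type I interferon list lies farthest from it, at 1.43, and the NRF2 list lies lowest, at -0.16.

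The interferon difference was spread over many monocytes. The type I list made up a median of 0.553% of a DHT monocyte's UMIs (5th to 95th percentile 0.2499 to 1.94%) and 0.347% of a Vehicle monocyte's (0.217 to 0.612%). The lower ends lay close together and the upper ends far apart. Of 816 DHT monocytes, 342 (41.9%, exact interval 38.5 to 45.4%) lay above the Vehicle cells' 95th percentile, as did 35 of 687 Vehicle monocytes (5.09%). With every cell thinned to 5000 UMIs, the medians were 27 UMIs of the list in DHT and 17 in Vehicle. RNA of the C1q macrophage markers Apoe and Ms4a7, described above, moved with this result in DHT. DHT monocytes with 0.01% or more of UMIs from Apoe and Ms4a7 (183, or 22.4%) had a list median of 0.965%, and those under that limit 0.484%. In Vehicle, 85 monocytes (12.4%) over the limit had 0.340% and those under it 0.347%. Among the 633 DHT and 602 Vehicle monocytes under the limit, the list's median log2 ratio was 1.10 and 68 genes in all were higher. There Ifitm3 and B2m no longer passed the fold, at log2 ratios of 0.55 and 0.54. With a share of each library's total profile subtracted as free RNA, the list's median was 1.33.

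The size of the difference varied with other features of the monocytes. Cells with under 0.2% of UMIs from the G2 and M phase genes carried more of it. They were 295 DHT monocytes (36.2%) and 202 Vehicle monocytes (29.4%), and their list medians were 0.861% and 0.421%. There 70 of 74 measured members were higher, with a median log2 ratio of 1.90. In monocytes with 0.2% or more, 521 DHT (63.8%) and 485 Vehicle (70.6%), the medians were 0.444% and 0.327%, 56 of 71 members were higher, and the median log2 ratio was 1.05. Depth differed too, with medians of 43761 UMIs in DHT and 41800 in Vehicle below 0.2%, and 83598 and 67517 UMIs at or above it. The part of depth in the difference was not tested. Among all genes that reached 20 CPM, 3.59% were higher and 0.555% lower below the 0.2% limit, and 0.921% were higher and 0.328% lower at or above it. The list members were counted from 2 CPM, and shares over all genes at that level were not computed for these cells. Isg15 showed the variation by level, with 237 CPM in DHT and 18.02 CPM in Vehicle monocytes below the 0.2% limit, and 43.9 and 7.43 CPM at or above it. The limit cuts a continuous score, and 61 DHT and 69 Vehicle monocytes lay near it.

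RNA of the neutrophil and monocyte progenitor genes Mpo, Elane, Prtn3 and Ctsg ordered the monocytes in a similar way. With 0.03 to 0.3% of UMIs from these genes, 120 DHT monocytes (14.7%) and 161 Vehicle monocytes (23.4%) had list medians of 0.305% and 0.275%. There 31 of 62 measured members were higher, at a median log2 ratio of 0.58, and 10 of the 120 DHT monocytes (8.33%) passed the Vehicle cells' 95th percentile. With under 0.03%, 696 DHT monocytes (85.3%) and 526 Vehicle monocytes (76.6%) had medians of 0.597% and 0.376%, with 63 of 73 members higher at a median of 1.48. There 47.7% of DHT monocytes passed that percentile. Median depth was 93064 UMIs in DHT and 78251 in Vehicle with 0.03 to 0.3%, and 63879 and 54944 UMIs with under 0.03%. The part of depth was not tested here either. Among all genes that reached 20 CPM, 0.937% were higher and 1.2% lower in the first range, and 1.64% higher and 0.253% lower in the second. The list members were counted from 2 CPM, and shares over all genes at that level were not computed for these ranges. Bst2 had 190 and 128 CPM in the first range and 338 and 133 CPM in the second, so its DHT levels differed between the ranges and its Vehicle levels hardly did. By the rule genes' own share the list median log2 ratio did not follow 1 direction: it was 1.53, 0.88 and 1.52 at 0.05 to 0.1%, 0.1 to 0.2%, and 0.2% or more.

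**Figure D4:**
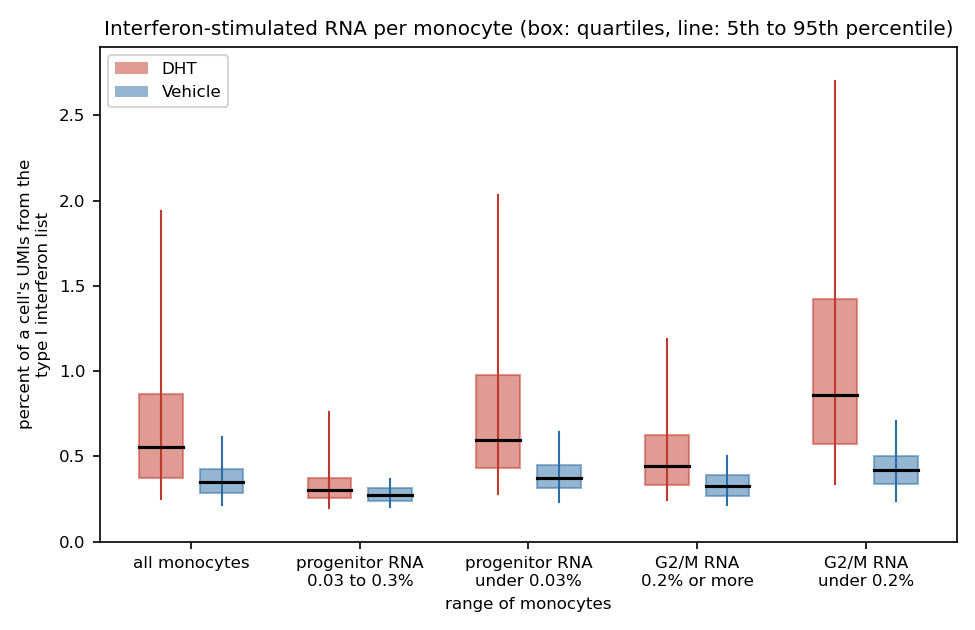
Boxes give the quartiles and the black line the median of the percent of a monocyte's UMIs from the type I interferon list, with thin lines from the 5th to the 95th percentile; DHT is left of Vehicle in each range. DHT boxes reach highest in cells with under 0.2% G2 and M phase RNA (median 0.861%, against 0.421% in Vehicle) and come closest to Vehicle in cells with 0.03 to 0.3% progenitor RNA (0.305% and 0.275%).

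Chemokines and their receptors were the next list, with 8 of 18 measured members higher in DHT monocytes and 1 lower, at a median log2 ratio of 0.54. The monocyte attractants Ccl2 and Ccl7 had 307 and 20.6 CPM in DHT, against 207 and 5.12 CPM in Vehicle, and Ccl2 stayed just under the 1.5-fold limit. Cxcl10, which draws T cells through Cxcr3, had 56.4 and 9.45 CPM, with 5 DHT and 2 Vehicle monocytes holding 50% of its UMIs. Ccl5 had the highest ratio of the named genes that reached 20 CPM, 32.3-fold (21.4 and 0.662 CPM), but 2 DHT monocytes held 50% of its UMIs. Without each library's highest barcode Ccl5 and Ccl7 no longer reached 20 CPM. RNA of the C1q macrophage markers Apoe and Ms4a7 moved with this list too. In monocytes with under 0.01% of UMIs from Apoe and Ms4a7, Ccl7 had a log2 ratio of 1.38, against 2.01 over all monocytes, and Pf4, a chemokine of platelets, was near equal, as given above. With each barcode thinned to 5000 UMIs, a Ccl2 UMI was found in 37.6% of DHT and 28.8% of Vehicle monocytes, against 4.26% and 1.11% of the S100a8 and S100a9 barcodes.

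Most classical monocyte genes stayed within the fold. Of 30 measured classical monocyte genes outside the rule, 4 were higher and 1 lower. Fcgr1, the high-affinity IgG receptor CD64 and itself known to respond to interferons, had 52.9 CPM in DHT and 6.35 CPM in Vehicle monocytes (8.33-fold, counting interval 7.37 to 9.45). In thinned cells an Fcgr1 UMI was found in 19.98% of DHT and 4.08% of Vehicle monocytes, against 1.17% and 0.223% of the S100a8 and S100a9 barcodes. The membrane genes Ms4a6b (91.8 and 46.2 CPM) and Ms4a6d (102 and 56.6 CPM) were also higher, as was Thbs1, thrombospondin 1 (110 and 72.9 CPM), whose log2 ratio of 0.60 was 0.57 under TMM and -0.03 in monocytes with under 0.2% G2 and M phase RNA. Hp, haptoglobin, was lower, at 231 and 350 CPM, with a log2 ratio of -0.60 that fell short of the fold in 5 alternative settings, at -0.58 to -0.55. Lyz2, lysozyme, Tgfbi, a matrix protein that binds integrins, and Cd14 stood within the fold at log2 ratios of 0.12, 0.12 and 0.49. Of 10 non-classical monocyte genes 0 were higher and 1 was lower, Treml4, and Cx3cr1, the fractalkine receptor, had 135 and 95.1 CPM.

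Myeloid transcription factors stayed close to equal, with 1 of 24 higher, 1 lower and a median log2 ratio of 0.02. Maf, a factor of macrophage differentiation, was higher at 95.5 and 45.6 CPM, and Cebpe, a granulocyte factor, was lower. Irf8, needed for monocyte development, had 169 and 181 CPM, and Klf4, another factor of monocyte development, had 75.3 and 108 CPM (log2 ratio -0.52). Of 16 progenitor genes 1 was higher, Sox4, and 2 lower, Hmga2 and Serpinb1a. Serpinb1a, an inhibitor of neutrophil proteases, had 10.8 CPM in DHT and 27.8 CPM in Vehicle monocytes. It was lower also within both progenitor ranges, at 37.3 and 67.6 CPM with 0.03 to 0.3% progenitor RNA and at 4.43 and 10.1 CPM below that.

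No single cell cycle gene was past the fold in the summed UMIs, with 0 of 42 S phase and 0 of 48 G2 and M phase genes higher or lower. Their median log2 ratios were -0.0003 and -0.04. The share of G2 and M phase RNA per cell was lower with DHT, at a median of 0.5% in DHT and 0.636% in Vehicle monocytes. Among monocytes of 40000 to 80000 UMIs the medians were 0.279% and 0.623%. Mki67, the proliferation antigen, had 358 CPM in DHT and 365 CPM in Vehicle monocytes, and Top2a, DNA topoisomerase II alpha, had 447 and 467 CPM.

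Osteoclast genes were mostly low in monocytes, and most of them stayed within the fold. Of 28 measured members 1 was higher and 4 were lower (Atp6v0d2, Cd109, Dcstamp and Src), at a median log2 ratio of -0.06. Atp6v0d2, a proton pump subunit used in fusion, had 6.804 and 14.6 CPM. Ctsk, the collagen-cutting protease that the rule limits, had 9.67 and 17.0 CPM. Tnfrsf11a (RANK, the receptor of RANKL) had 132 and 109 CPM, and Nfatc1, the main factor of osteoclast formation, had 45.7 and 52.1 CPM. The exception was Mmp9, a gelatinase of osteoclasts and neutrophils, at 54.6 and 29.4 CPM, with 34 DHT and 15 Vehicle monocytes holding 50% of its UMIs. Its log2 ratio of 0.89 was 0.29 in monocytes with under 0.01% of UMIs from Apoe and Ms4a7. The count differed between ranges. With 0.03 to 0.3% progenitor RNA 0 of 29 osteoclast genes were higher and 14 lower, and with under 0.03%, which holds most monocytes, 1 of 28 was higher and 2 lower. With under 0.2% G2 and M phase RNA 2 of 26 were higher and 0 lower, at a median log2 ratio of 0.16, and with 0.2% or more 0 of 28 were higher and 4 lower. By the rule genes' share of UMIs, 3 of 28 were higher and 0 lower at 0.05 to 0.1%. At 0.1 to 0.2% 1 of 28 was higher and 7 lower, and at 0.2% or more 1 of 28 was higher and 4 lower. Shares over all genes were not computed for the rule gene ranges. For the other ranges they are given above at 20 CPM, while list members were counted from 2 CPM.

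Repair genes and inflammatory cytokines gave a smaller pattern. Of 16 genes of alternative activation, 6 were higher and 0 lower, at a median log2 ratio of 0.36. They were Spp1, Mertk, Folr2, Vegfa, Mrc1 and Arg1, of which Mertk and Mrc1 are also among the C1q macrophage markers above. With 0.03 to 0.3% progenitor RNA 3 of 14 were higher and 5 lower, at a median of -0.13. In that range 0.937% of all genes that reached 20 CPM were higher and 1.2% lower. Spp1, osteopontin, was by far the most abundant in counts, with 2704 CPM in DHT and 1436 CPM in Vehicle monocytes. Its log2 ratio was 1.11 in monocytes with 0.2% or more G2 and M phase RNA and 0.37 in the others. Arg1, arginase 1, had 10.1 and 3.56 CPM, with 10 DHT and 8 Vehicle monocytes holding 50%. Of 32 NF-kappaB and cytokine genes, 5 were higher: Acod1, Saa3, Ptgs2, Il1rn and Il1b. Acod1, which makes itaconate, had a log2 ratio of 0.61 that was 0.58, short of the fold, under TMM or median of ratios scaling, and Saa3, an acute phase protein, had 0.67, or 0.57 when CPM were averaged over cells. Tnf had 49.2 and 48.6 CPM.

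Androgen and steroid response genes gave no gene that was higher, with 2 of 15 lower (Hsd11b1 and Klf9) at a median log2 ratio of -0.004. Hsd11b1, which regenerates active glucocorticoid, had 30.4 CPM in DHT and 48.2 CPM in Vehicle monocytes. Fkbp5, a cochaperone known to respond to steroid hormones, had 35.8 and 32.5 CPM. In the list of NRF2, ferritin and heme genes, 3 of 19 were lower (Nqo1, Gsta3 and Gstm1) and 0 higher, and 2 ratios were above 0, at a median log2 ratio of -0.16. Gstm1, a glutathione transferase, had 60.7 and 92.6 CPM, and Gclm, a subunit of the enzyme that starts glutathione synthesis, had 165 and 238 CPM. Cholesterol synthesis, stress and MHC class II accessory genes had 0 of 17, 0 of 16 and 0 of 8 members past the fold. Glycolysis and apoptosis genes had 2 of 22 and 2 of 20 higher and 0 lower. Adhesion genes had 1 of 27 lower, the integrin Itgb7, which pairs with alpha 4 and alpha E chains, at 40.3 and 61.0 CPM. Its log2 ratio of -0.60 fell short of the fold in 4 alternative settings, at -0.58 to -0.41. Pattern recognition and Fc receptor genes had 3 of 28 higher, Fcgr1, Fcgr4 and Axl.

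Among genes that reached 20 CPM, leaving out immunoglobulin and predicted genes, the 12 with the highest ratios were Ccl5, Rtp4, Irf7, Oasl2, Isg15, Csta2, Fcgr1, Slfn1, Cstdc4, Oas3, Cxcl10 and Slfn5. Csta2 and Cstdc4, cysteine protease inhibitors of the stefin A cluster whose members share much sequence, had 62.6 and 38.0 CPM in DHT, against 7.26 and 6.10 CPM in Vehicle. Reads of these near-identical genes can be split by the counting, and 11 and 7 DHT monocytes held 50% of their UMIs. Under the same limit, the 12 with the lowest ratios were Prg4, Serpinb1a, Akap6, Ltb4r1, Ramp1, Rasgrp2, Arhgef18, Cytip, Hal, Hsd11b1, Elane and Gstm1. Ltb4r1, the leukotriene B4 receptor, had 26.1 and 44.7 CPM, and Ramp1, a partner of the receptor for calcitonin gene-related peptide, had 26.0 and 43.5 CPM. Rasgrp2, an activator of the small GTPase Rap1, had 27.5 and 44.7 CPM. In monocytes with under 0.2% G2 and M phase RNA it fell short of the fold, at a log2 ratio of -0.32. Arhgef18 and Cytip fell short there too, at -0.26 and -0.37. Akap6 rested on few cells, with 14 DHT and 11 Vehicle monocytes holding 50% of its UMIs, and its log2 ratio of -1.01 was 0.34 without the 10% of monocytes with the highest Scrublet score and 0.12 in monocytes of 40000 to 80000 UMIs. Elane, a gene the rule limits, had a log2 ratio of -0.65 over all monocytes and 0.37 in those with under 0.2% G2 and M phase RNA.

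A few of these ratios came from single barcodes. For 4 genes past the fold, 1 barcode of the higher library held 50% or more of the UMIs: Prg4, Igkc, Ighg1 and Jchain. Prg4, lubricin of joints and stroma, had 0.469 CPM in DHT and 50.02 CPM in Vehicle monocytes, but 2167 of its 2190 Vehicle UMIs were in 1 barcode. Igkc, the kappa light chain of antibodies, had 20255 UMIs in DHT monocytes, of which 15649 were in 1 barcode and 4339 in another, where they made up 39.1% and 25.6% of all UMIs. Both barcodes met the monocyte rule. Leaving out each gene's highest barcode gave 99 genes higher and 13 lower, all of them among the 104 and the 17.

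The interferon-stimulated genes were also higher with DHT in the sets most like monocytes. These were progenitor barcodes (167 DHT and 161 Vehicle, at least 0.3% of UMIs from Mpo, Elane, Prtn3 and Ctsg), C1q barcodes (681 and 588, at least 0.03% from the C1q genes) and Acp5/Ctsk barcodes (610 and 1041, at least 0.1%). Of 62 list members measured in all 4 sets, 51 were higher in monocytes, 39 in progenitor, 57 in C1q and 50 in Acp5/Ctsk barcodes. Their median log2 ratios were 1.26, 0.88, 1.61 and 1.31. Among all genes that reached 20 CPM, 2.01% were higher and 1.53% lower in progenitor barcodes, 3.66% and 0.667% in C1q barcodes, and 0.827% and 0.0156% in Acp5/Ctsk barcodes. The list members were counted from 2 CPM, and shares over all genes at that level were not computed for these other sets. Monocytes had the larger ratio than progenitor barcodes for 47 of the 62 members, than C1q barcodes for 12 and than Acp5/Ctsk barcodes for 27. With 1 library per group the differences between sets have no test.

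Single genes ordered the sets differently. Fcgr1 had a log2 ratio of 3.06 in monocytes and 2.13 in C1q barcodes, where its CPM were 106 in DHT and 24.2 in Vehicle. Ly6a had 2.28 in monocytes, 0.53 in progenitor and 2.98 in C1q barcodes. The C1q barcodes also had more of the monocyte genes themselves with DHT, with F13a1 at 220 and 74.4 CPM and Ccr2 at 71.9 and 33.2 CPM. In progenitor barcodes F13a1 stood at 139 and 225 CPM.

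**Figure D5:**
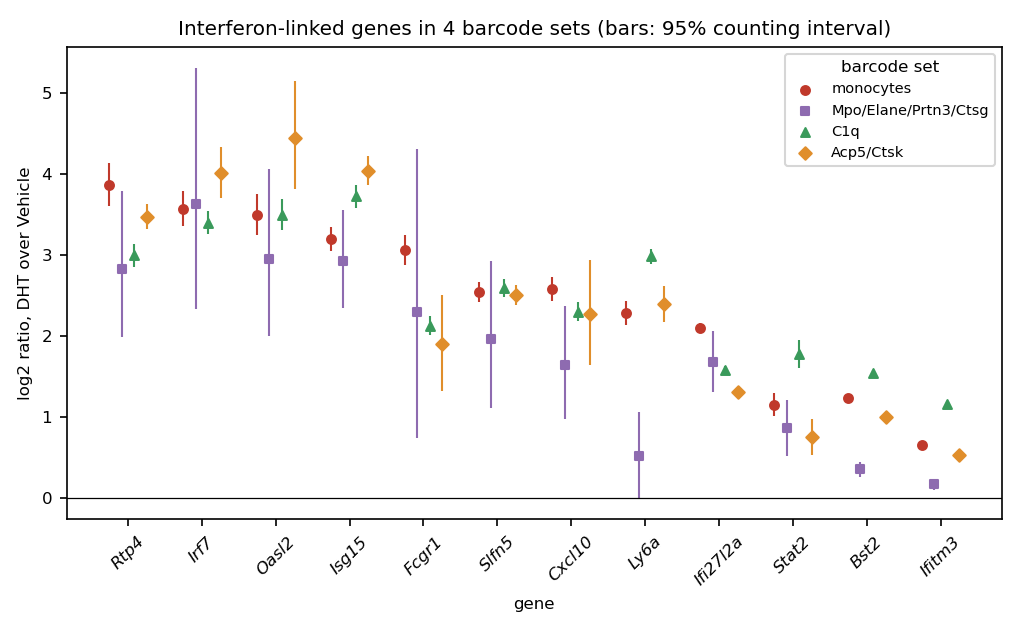
Log2 ratios of DHT over Vehicle for 12 interferon-linked genes in monocytes and 3 other barcode sets, with 95% intervals for counting error only. All points lie above 0; monocytes lie above the progenitor barcodes for Bst2, Ifitm3 and Ly6a and below the C1q barcodes for Ly6a and Isg15.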

How the data were processed

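The authors deposited raw UMI counts per gene and barcode for each of the 2 libraries, made with 10x Genomics 3′ chemistry. Cell Ranger 7.0.1 is named in the submitters' processing notes, as are builds mm10 and GRCh38, with no role stated. How cells were called, and whether intronic reads counted, was not given in the sources used here. Of 32285 gene identifiers, 32158 (99.6%) matched GENCODE M21 (GRCm38), which supplied positions.

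UMIs were summed over the monocytes of a library and divided by their total (CPM). Ratios are DHT over Vehicle, with exact conditional binomial intervals, and shares have exact Clopper-Pearson intervals. All intervals are at 95% and cover counting error alone. Because cells of 1 library do not replicate it, no p-value was computed. Genes were counted at 1.5-fold or more if either library reached 20 CPM, and list members from 2 CPM, with a library at 0 set to a floor of 3 counts. Named genes are the 12 highest and 12 lowest (without mitochondrial, ribosomal protein, immunoglobulin and predicted genes), members of 22 lists at 1.5-fold or at a list's ends, and genes fixed by name. The members, the gene lists and 17 marker lists were chosen with earlier results of these data known. Scrublet ran on barcodes with at least 800 UMIs at an expected rate of 0.08 and marked 203 DHT (2.57%) and 156 Vehicle barcodes (1.78%). Doublet calls were used only in an alternative. The comparison was also run on simulated counts with known changes and counting error only. They held no variation between cells or libraries, so that run says nothing about such variation. Python 3.11.15, numpy 2.4.6, scipy 1.17.1, pandas 2.3.3, scanpy 1.11.5, R 4.3.3 and edgeR 4.0.16 (TMM factors only) were used. Some genes of the lists are not reported here by name.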

Additional observations from a re-analysis of the deposited data

Results flagged for a closer look

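For the 3 genes below, DHT and Vehicle differed past the fold in opposite directions in monocytes and in another barcode set. Each reached 20 CPM in 1 or both libraries of both sets. Genes at lower CPM in the other set could differ so too. Ccl7 had a log2 ratio of 2.01 in monocytes and -2.57 in progenitor barcodes (0.465 and 2.76 CPM). The differences between sets were not tested. Cdk14, a cyclin-dependent kinase, had a log2 ratio of 0.59 in monocytes (182 CPM in DHT and 120 CPM in Vehicle) and -0.95 in progenitor barcodes (13.5 and 26.2 CPM). Spp1 had 0.91 in monocytes (2704 and 1436 CPM) and -0.81 in progenitor barcodes (70.9 and 124 CPM). Hp had -0.60 in monocytes (231 and 350 CPM) and 1.22 in C1q barcodes (29.5 and 12.7 CPM), and its monocyte value fell short of 1.5-fold in 5 alternative settings, at -0.58 to -0.55.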

How the results depend on the processing

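No paired analysis was possible because each group is 1 library. The counts of genes higher and lower with DHT were 104 and 17, the median log2 ratio of the type I interferon list was 1.43, and the ratio of monocyte shares was 1.43. Averaging CPM over cells gave 178 and 11 genes and a list median of 1.815, and thinning every cell to 5000 UMIs gave 259 and 46 and 1.82. A minimum of 5 CPM gave 187 and 71 genes, no minimum 1827 and 1411, and a minimum of 50 CPM 59 and 4 with a list median of 1.255. A 2-fold limit left 53 and 3. Monocytes with under 0.2% G2 and M phase RNA gave 220 and 34 genes and a list median of 1.90. Of those 220 and 34, 98 and 4 were also among the 104 and the 17. A gene can leave the count by its ratio or by falling under 20 CPM. Subtracting free RNA, estimated at 5.44% of DHT and 13.7% of Vehicle monocyte UMIs, gave 30 lower genes. The share ratio within the 4 compared sets was 1.29. Settings chosen after seeing the data were 40000 to 80000 UMIs (202 and 116 genes), Apoe and Ms4a7 under 0.01% (68 higher genes and a list median of 1.10), and leaving out each gene's highest barcode. In the 40000 to 80000 UMI band, 56.4% of DHT and 74.6% of Vehicle monocytes had 0.2% or more G2 and M phase RNA. The other settings gave 94 to 149 higher and 13 to 20 lower genes, with list medians of 1.33 to 1.52. The limits on CPM and fold change the number of genes by construction. For the other settings the cause was not tested.

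Log2 ratios of named genes past 1.5-fold changed sign in 6 cases: Akap6 (0.34 without the highest Scrublet scores and 0.12 at 40000 to 80000 UMIs), Elane (0.37), Prg4 (0.22) and Thbs1 (-0.034) in monocytes with under 0.2% G2 and M phase RNA, and Pf4 (-0.081) with Apoe and Ms4a7 under 0.01%. Sign changes of named genes within the fold were not counted. Of 77 named genes past 1.5-fold, 22 fell short of it in 1 or more of 15 settings. Acod1 fell short in 9 settings, with log2 ratios of 0.48 to 0.58. Replicates are lacking, so the spread between libraries of a group is unknown.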
